A study of Rattus norvegicus with 18 samples.

Results

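The 42 genes described here encode ephrins, Eph receptors, semaphorins, plexins and neuropilins, families of cell-surface and secreted proteins best known for guiding growing axons and migrating cells. They are picked out by symbol, a rule that uses no measured value, as every ephrin (Efna, Efnb), Eph receptor (Epha, Ephb), semaphorin of classes 3 to 7 (Sema3 to Sema7), plexin (Plxna, Plxnb, Plxnd) and neuropilin (Nrp) among the 13188 genes of the deposited table. The members were 4 ephrin-A and 3 ephrin-B ligands, 7 EphA and 3 EphB receptors, 19 semaphorins, 2 neuropilins and 4 plexins. A further 11 genes of these families that are listed in RefSeq, among them Ephb4, Plxna1 and Plxnb1, were not analysed here.

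Ephrins are membrane-bound ligands that bind Eph receptor tyrosine kinases on neighbouring cells, and both sides of the contact can signal. Semaphorins, some secreted and some held in the membrane, act through plexins, whose intracellular part switches off small GTPases of the Ras and Rap family, and the secreted class 3 semaphorins mostly need a neuropilin as co-receptor. In fibroblasts, as in neurons, these systems act on the actin cytoskeleton, adhesion and repulsion between cells that touch.

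The study sequenced poly-A RNA from 18 cultures of HO15.19, a Rat1 fibroblast line in which the endogenous myc gene is disrupted (myc-/-), to compare cells with and without human MYC and with and without knockdown of the aryl hydrocarbon receptor AHR, a ligand-activated transcription factor. All 6 groups of 3 cultures carried the myc-/- alleles and, per the labels, were grown in 10% serum, while the study's methods give a lower serum content for Rat1 fibroblasts. Human MYC had been introduced stably with a viral vector, in the study's text the retroviral vector pBabe with the empty vector in the cells without MYC. The groups were myc-/-, myc-/- + MYC, myc-/- siCtrl and myc-/- + MYC siCtrl (a control siRNA), and myc-/- + MYC with either of 2 siRNAs against AHR, siAHR-2 and siAHR-5. Per the labels every siRNA was used at 40 nM, where the study's methods give a higher dose for its knockdowns, and the cells were harvested 48 h later. All groups derive from a single cell line, and nothing in the labels says that the 3 cultures of a group were grown independently, so that the p-values below measure the spread between these cultures, which may be technical.

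The values are normalized expression on a log2 scale as deposited. They are headed as log CPM, but on a linear scale their sums per library are far above what CPM allows, and the exact transformation is not given in the sources used here. Folds below take the values as plain log2, where a difference of 1 is 2-fold, and would be off, most for low values, if an offset or shrinkage was applied. The libraries form 2 sets on different scales, so that groups were compared only within a set. One, called the 6-culture set here, holds the groups myc-/- + MYC and myc-/- siCtrl. The other, the 12-culture set, holds the untransfected myc-/- cells and the siCtrl, siAHR-2 and siAHR-5 groups of myc-/- + MYC cells. In both comparisons of MYC the groups also differ in transfection (the control siRNA was in the cells without MYC in the 6-culture set and in the cells with MYC in the 12-culture set), so the effects of MYC and of transfection cannot be told apart. A gene was called changed where its log2 fold change (log2FC) from limma reached a fold of 1.5 in either direction, with a Benjamini-Hochberg adjusted p of at most 0.01 over all 13188 genes. Read depth is unknown, and in RNA from whole cultures fewer expressing cells and less RNA per cell cannot be told apart.

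Library checks bear on some of these values. Ahr, the target of both siRNAs, lay at 13.22 to 13.34 in siCtrl cultures with MYC, at 11.97 to 12.03 after siAHR-2 and at 11.76 to 11.95 after siAHR-5. The rat Myc row was higher in the cells without human MYC: it lay at 9.16 to 9.47 in myc-/- siCtrl against 8.01 to 8.08 in myc-/- + MYC cultures (log2FC −1.26, limma adjusted p = 4.21e-08), and at 10.82 to 10.94 in myc-/- against 8.16 to 8.27 in myc-/- + MYC siCtrl cultures (log2FC −2.68, limma adjusted p = 6.02e-07). The part of the rat gene that is disrupted is not given in the sources used here and human MYC was not analysed here, so this row does not check which cultures carried MYC. Ahr was higher with MYC, with a log2FC of 0.52 in the 6-culture set (limma adjusted p = 8.33e-07) and 1.40 in the 12-culture set (limma adjusted p = 4.42e-05). Of 10 fibroblast markers, 9 lay at 11.34 or above in every library and Col1a2 between 3.64 and 4.13; with MYC, 5 fell and 1 rose in the 6-culture set and 6 fell in the 12-culture set. Of 22 markers of endothelial, epithelial, neural and immune cells in the table, 6 were called with MYC in the 6-culture set, 2 higher (Krt8 and Tek) and 4 lower, and 3 in the 12-culture set, 1 higher (Krt8) and 2 lower. On the log2 scale their summed level lay between 11.31 and 11.32 in myc-/- siCtrl and between 10.64 and 10.74 in myc-/- + MYC cultures, and between 11.28 and 11.41 in myc-/- and between 10.93 and 11.01 in myc-/- + MYC siCtrl cultures, with no marker listed at 0. The endothelial and immune sums were lower with MYC in both sets. The epithelial sum was higher with MYC in both, between 8.69 and 8.70 without it and at 8.85 or above with it in the 6-culture set, and between 7.89 and 8.03 without and 8.83 and 9.16 with it in the 12-culture set. The neural sum was lower with MYC in the 6-culture set (7.68 to 7.69 without and 7.49 to 7.52 with it) and higher in the 12-culture set (7.76 to 7.84 without and 7.95 to 8.10 with it). The summed level of the fibroblast markers lay between 20.91 and 20.93 without and between 20.03 and 20.12 with MYC in the 6-culture set, and between 22.07 and 22.29 without and between 20.35 and 20.38 with MYC in the 12-culture set. Of the 10 fibroblast markers, 0 were called with siAHR-2 and 1 with siAHR-5, Thy1, which rose by 0.75 on the log2 scale (limma). Over all genes, 0.47% and 2.32% were called. The summed level of these 10 markers was lower with either siRNA, without overlap. It lay between 20.35 and 20.38 in siCtrl cultures with MYC, 20.11 and 20.15 with siAHR-2, and 20.13 and 20.15 with siAHR-5. Between the siRNAs, 3 of the 10 were higher with siAHR-5 than with siAHR-2, against 2.18% of all genes. With either siRNA, 0 of the 22 other markers were called. The part of these markers in the results was not tested. Replicate 2 of the myc-/- group stood apart: 12 of the 42 members lay more than 0.2 below the mean of its group mates, against 0 to 3 in each of the other 17 libraries, and so did 11.4% of all genes, against 0.425% to 2.37%. All 20 calls among the members in the 12-culture set were kept without it.

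With MYC, 22 of the 42 guidance genes were called in the 6-culture set and 20 in the 12-culture set, with more members lower than higher in each. In the 6-culture set, 7 members rose and 15 fell with MYC (limma), and 26.8% of all 13188 genes were called, 12.5% higher and 14.3% lower. In the 12-culture set, 7 members rose and 13 fell, and 25.5% of all genes were called, 10.8% higher and 14.7% lower. After quantile normalization the members' counts were the same in both sets, but all genes split into 1799 higher and 1684 lower in the 6-culture set and 1796 and 1660 in the 12-culture set. The direction of the split over all genes thus depended on the scaling. After median centring the members' counts were again the same and all genes split into 1492 higher and 2046 lower in the 6-culture set and 1603 and 1791 in the 12-culture set. The median log2FC over the members was −0.13 in the 6-culture set and −0.10 in the 12-culture set (−0.05 after quantile normalization and −0.06 after median centring in the latter), and over all genes it was −0.00382 and −0.00014. A total of 15 members were called in the same direction in both sets, which is 68.2% of the members called in the 6-culture set and 75% of those called in the 12-culture set. Over all genes these shares were 58.8% and 61.9%. The 3 cultures with MYC did not overlap the 3 without it for 37 members in the 6-culture set, against 78.8% of all genes, and for 35 in the 12-culture set, against 70.5%. With an adjusted p of 0.05 and no fold cutoff, 35 members were called in the 6-culture set, against 76.2% of all genes, and 34 in the 12-culture set, against 64.7%. Efna4, Plxna2, Sema3a, Sema3e, Sema6b and Sema6c were higher with MYC in both sets. Epha3, Epha5, Epha7, Ephb2, Nrp2, Plxna3, Sema3b, Sema3c and Sema7a were lower in both. Epha4 was called in opposite directions, 10 members were called in a single set and 16 in neither. Of the 8 members whose mean was below 5 in both sets, 0 were called in any comparison with a control (limma). The values of each of these 8 spanned at most 0.343 within a set, less than the fold cutoff, so that no call was possible. These 0 calls say nothing of how the 8 genes respond.

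**Figure D1:**
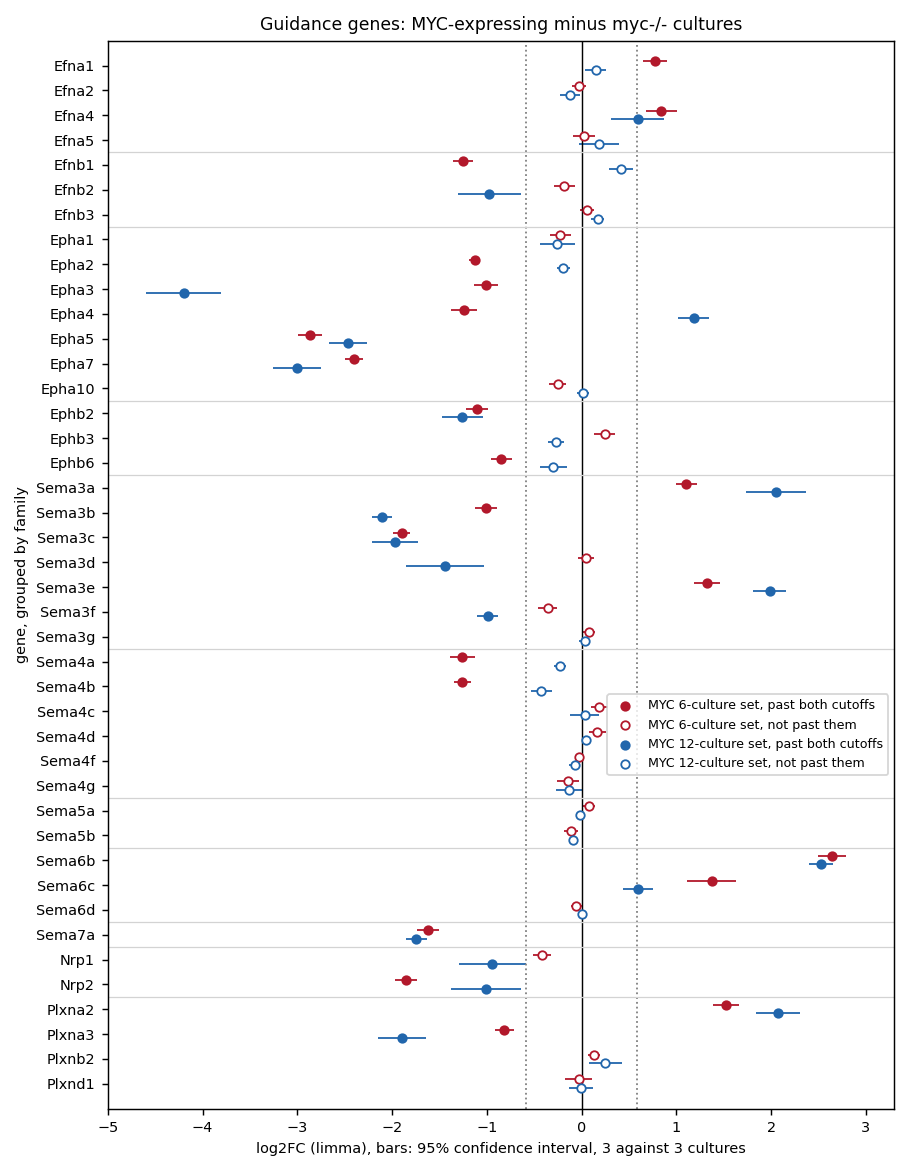
Log2FC with MYC for the 42 guidance genes (x axis, limma, with 95% confidence intervals; y axis, genes grouped by family) in the 6-culture set (red) and the 12-culture set (blue), 3 against 3 cultures each; filled points passed both cutoffs and dotted lines mark a fold of 1.5 in either direction. Epha5 and Epha7 lie far to the left and Sema6b far to the right in both sets, while the points of Epha4 lie on opposite sides of 0, at −1.24 and 1.18.

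The promoters of the 4 members with the strongest change shared by both sets are shown here, ranked by the smaller of the 2 log2FC and limited to genes with an entry, because MYC binds DNA at the E-box CACGTG and AHR at a core of GCGTG. Each window runs from 250 bases before to 50 bases after the annotated start (RefSeq, GRCr8; a different assembly from the rn6 used for alignment) and is written 5′ to 3′ on the gene's strand. None of these 4 windows holds CACGTG or GCGTG on either strand. The annotated start used for Sema6b lies inside the span of the gene. The window of Sema3e is added, chosen after the motifs were searched, as the sole member called in both sets whose window holds CACGTG; its match begins 14 bases before the start and is in capitals. The windows are Sema6b at chr9:1047693-1047992 (minus strand, higher with MYC), Epha5 at chr14:24007872-24008171 (plus strand, lower), Epha7 at chr5:47771643-47771942 (plus strand, lower), Sema3c at chr4:18699578-18699877 (minus strand, lower) and Sema3e at chr4:21510325-21510624 (minus strand, higher).
Sema6b: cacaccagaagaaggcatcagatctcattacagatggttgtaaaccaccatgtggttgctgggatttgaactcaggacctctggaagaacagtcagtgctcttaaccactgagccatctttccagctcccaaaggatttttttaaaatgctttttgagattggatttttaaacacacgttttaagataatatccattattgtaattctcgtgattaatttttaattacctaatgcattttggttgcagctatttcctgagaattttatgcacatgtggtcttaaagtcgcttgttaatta
Epha5: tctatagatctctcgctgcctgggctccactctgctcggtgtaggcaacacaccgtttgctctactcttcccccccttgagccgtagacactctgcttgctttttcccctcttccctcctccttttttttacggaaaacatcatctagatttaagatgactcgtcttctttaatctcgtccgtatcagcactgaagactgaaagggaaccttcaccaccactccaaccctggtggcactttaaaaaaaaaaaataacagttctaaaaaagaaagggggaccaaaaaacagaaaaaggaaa
Epha7: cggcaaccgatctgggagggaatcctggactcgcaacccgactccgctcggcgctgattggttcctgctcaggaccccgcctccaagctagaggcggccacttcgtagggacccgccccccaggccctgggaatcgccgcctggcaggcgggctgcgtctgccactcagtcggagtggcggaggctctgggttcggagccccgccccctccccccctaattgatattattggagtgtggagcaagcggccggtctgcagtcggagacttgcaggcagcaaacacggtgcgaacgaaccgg
Sema3c: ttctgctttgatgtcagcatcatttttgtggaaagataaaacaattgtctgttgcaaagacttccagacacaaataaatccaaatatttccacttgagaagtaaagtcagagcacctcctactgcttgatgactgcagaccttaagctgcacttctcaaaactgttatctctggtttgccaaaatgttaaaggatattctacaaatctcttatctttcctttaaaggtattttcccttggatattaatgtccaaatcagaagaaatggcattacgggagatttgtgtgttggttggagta
Sema3e: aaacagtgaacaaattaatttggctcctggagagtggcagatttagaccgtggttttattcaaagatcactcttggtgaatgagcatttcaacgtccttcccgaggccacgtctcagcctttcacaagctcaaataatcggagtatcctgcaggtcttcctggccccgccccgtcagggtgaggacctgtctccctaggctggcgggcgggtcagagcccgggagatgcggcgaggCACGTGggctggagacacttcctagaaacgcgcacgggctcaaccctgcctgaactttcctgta

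Of the 34 members with a promoter entry, 3 held CACGTG (8.82%), namely Efna5, Sema3e and Sema4b, against 8.9% of the 9842 promoters of genes in the expression table. Efna5 was called in neither set. GCGTG, searched on both strands, was in 13 of the 34 windows (38.2%), against 47% of those 9842. The 2 motifs share the letters CGTG but a match to one is not a match to the other, since they differ in the base before. A match is a description of the letters in the window, and a window without one says nothing of binding elsewhere.

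Among the ephrins, the ligands, the ephrin-A genes that were called rose with MYC and the ephrin-B genes that were called fell. The sole ligand called in both sets was Efna4, a lipid-anchored ephrin-A. In the 6-culture set its values were 10.25, 10.18 and 10.26 in myc-/- siCtrl cultures and 11.25, 11.05 and 10.91 in myc-/- + MYC cultures, a log2FC of 0.84 (SE 0.0745, limma adjusted p = 1.05e-06). Those of the 12-culture set were 8.95, 9.36 and 9.23 in myc-/- and 9.80, 9.69 and 9.82 in myc-/- + MYC siCtrl cultures, a log2FC of 0.59 (SE 0.11, limma adjusted p = 0.00467). Every culture with MYC was above every culture without it in both sets, but the log2FC in the 12-culture set lay just past the fold cutoff. The call was lost in 5 of the 6 fits that left out a library, and over all 6 the log2FC ranged from 0.48 to 0.68. It was kept without replicate 2 of myc-/-, at 0.68. Without replicate 3 of myc-/- (0.62) or replicate 2 of myc-/- + MYC siCtrl (0.63) it was lost on the limma adjusted p (0.0152 and 0.0142). Efna1, another ephrin-A and the neighbour of Efna4 on the chromosome with 1 protein-coding gene between them, rose from 11.46 ± 0.0291 to 12.24 ± 0.129 (SD, n = 3 each) in the 6-culture set, a log2FC of 0.77 (limma adjusted p = 2.18e-07), with a log2FC of 0.15 in the 12-culture set. Efna2 and Efna5 were called in neither set.

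Efnb1 and Efnb2, transmembrane ephrin-B ligands, were each called in 1 set. Efnb1 fell in the 6-culture set from 12.18 ± 0.0337 to 10.93 ± 0.0806 (SD, n = 3 each), a log2FC of −1.25 (limma adjusted p = 6.11e-10), with a log2FC of 0.41 in the 12-culture set, of the other sign and below the fold cutoff. Efnb2 had a log2FC of −0.18 in the 6-culture set and fell by 0.97 in the 12-culture set (SE 0.14, limma adjusted p = 0.0011). Efnb3 was called in neither set.

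More Eph receptors fell than rose with MYC in both sets. In the 6-culture set, 7 of 10 fell and 0 rose (limma, median log2FC −1.06 over the 10), against 14.3% of all genes lower and 12.5% higher. Of the same 10, 4 fell and 1 rose in the 12-culture set (median −0.28), against 14.7% lower and 10.8% higher. Of the EphA receptors, which mainly bind ephrin-A ligands, Epha5 had the largest fall of all 42 members in the 6-culture set and Epha3 in the 12-culture set. Epha5 was at 10.01, 9.97 and 9.94 in the myc-/- siCtrl cultures and at 7.09, 7.10 and 7.14 in the myc-/- + MYC cultures, 7.28-fold lower with MYC. Within the larger set it went from 8.97, 8.95 and 9.20 to 6.55, 6.62 and 6.57, 5.5-fold lower. The cultures with MYC lay more than 2 log2 units below those without it in both sets (log2FC −2.86 with SE 0.0565, and −2.46 with SE 0.0812; limma adjusted p = 4.41e-12 and 2.79e-06).

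Epha7 behaved alike in direction. Its values were 11.84, 11.87 and 11.82 without and 9.46, 9.41 and 9.44 with MYC in the 6-culture set, a log2FC of −2.41 (SE 0.043, limma adjusted p = 2.14e-12). The 12-culture set held 10.75, 10.55 and 10.73 without and 7.51, 7.83 and 7.70 with MYC, a log2FC of −3.0 (SE 0.10, limma adjusted p = 3.24e-06). There was no overlap between the groups in either set. Epha3 was the member whose fall differed most between the sets. It went from 10.86, 10.96 and 10.92 to 9.81, 10.00 and 9.90 in the 6-culture set, 2.02-fold lower (log2FC −1.01, SE 0.0569, limma adjusted p = 1.98e-08). Its values in the 12-culture set were 12.13, 11.58 and 12.11 without and 7.64, 7.74 and 7.84 with MYC, 18.3-fold lower (log2FC −4.20, SE 0.16, limma adjusted p = 4.87e-06). The myc-/- culture at 11.58 is replicate 2, and without it the log2FC was −4.37.

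Epha4, an EphA receptor that binds ephrins of both the A and B class, was the 1 member called in opposite directions. In the 6-culture set it fell from 10.07, 10.11 and 10.13 in myc-/- siCtrl to 8.87, 8.76 and 8.96 in myc-/- + MYC cultures (log2FC −1.24, SE 0.0621, limma adjusted p = 7.43e-09). The larger set gave 7.56, 7.34 and 7.45 without and 8.65, 8.64 and 8.61 with MYC, a rise (log2FC 1.18, SE 0.0677, limma adjusted p = 2.36e-05). In each set the groups were well apart, in opposite orders. Epha2, a receptor of ephrin-A1, fell in the 6-culture set from 14.72 ± 0.00755 to 13.59 ± 0.0267 (SD, n = 3 each; log2FC −1.13, limma adjusted p = 2.16e-11), beside a log2FC of −0.19 in the 12-culture set. Epha1 and Epha10 were called in neither set.

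Of the EphB receptors, Ephb2 fell in both sets. Its values were 11.81, 11.84 and 11.94 without and 10.85, 10.71 and 10.72 with MYC in the 6-culture set (log2FC −1.11, SE 0.0517, limma adjusted p = 4.17e-09). Those of the 12-culture set were 12.39, 12.14 and 12.36 without and 10.98, 11.17 and 10.97 with MYC (log2FC −1.26, SE 0.089, limma adjusted p = 5.74e-05). The groups did not overlap in either set, and the 2 log2FC differed by −0.15 (SE 0.10, limma adjusted p = 0.227). Ephb6, a receptor without kinase activity, fell in the 6-culture set (log2FC −0.85, limma adjusted p = 2.48e-08), where all 3 MYC cultures were listed at 5.69. It was not called in the 12-culture set (log2FC −0.30), where all 3 MYC cultures were listed at 4.83. Such nearly identical values may be the lowest that could be listed for this gene, which was not tested. A larger fall might then not show in either set. Ephb3 was called in neither set, with log2FC of 0.24 and −0.27.

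The semaphorins split in direction, with 4 higher and 5 lower with MYC of 19 in each set (limma), against 12.5% of all genes higher and 14.3% lower in the 6-culture set and 10.8% and 14.7% in the 12-culture set. Within class 3, the secreted semaphorins, Sema3a and Sema3e rose and Sema3b and Sema3c fell in both sets. Sema3a, a classic axon repellent, went from 9.54, 9.53 and 9.60 to 10.64, 10.64 and 10.71 in the 6-culture set (log2FC 1.10, SE 0.0495, limma adjusted p = 2.91e-09). It went from 10.01, 9.55 and 9.94 to 11.93, 11.94 and 11.79 across the 12-culture set, 4.15-fold higher (log2FC 2.05, SE 0.13, limma adjusted p = 3.40e-05). The lowest myc-/- value, 9.55, is that of replicate 2, and without it the log2FC was 1.91. Sema3e, which can bind a plexin without a neuropilin, went from 9.04, 9.01 and 8.88 to 10.22, 10.31 and 10.36 in the 6-culture set (log2FC 1.32, SE 0.0623, limma adjusted p = 4.43e-09). Within the larger set it went from 9.54, 9.40 and 9.55 to 11.59, 11.43 and 11.42, 3.95-fold higher (log2FC 1.98, SE 0.0699, limma adjusted p = 3.59e-06). Its promoter window is the one above with an E-box in capitals.

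Sema3b fell further in the 12-culture set than in the 6-culture set, and Sema3c fell in both. Sema3b, which lies near Sema3f on the chromosome with 3 protein-coding genes between them, went from 12.78, 12.85 and 12.81 to 11.93, 11.80 and 11.69 in the 6-culture set, 2.01-fold lower (log2FC −1.01, limma adjusted p = 1.21e-08). Its values in the 12-culture set were 12.42, 12.46 and 12.44 without and 10.39, 10.34 and 10.27 with MYC, 4.31-fold lower (log2FC −2.11, limma adjusted p = 5.10e-07). Sema3c, a secreted semaphorin with a role in heart and vessel development, went from 15.72, 15.60 and 15.60 to 13.68, 13.77 and 13.78 in the 6-culture set (log2FC −1.90, SE 0.0405, limma adjusted p = 8.09e-12). The larger set gave 16.95, 16.61 and 16.94 without and 14.91, 14.86 and 14.80 with MYC (log2FC −1.97, SE 0.10, limma adjusted p = 1.34e-05). Its log2FC of the 2 sets differed by −0.07 (limma adjusted p = 0.566), while that of Sema3b differed by −1.10 (limma adjusted p = 1.95e-08). Sema3c and Sema3e, which moved in opposite directions, lie on 1 chromosome with 4 protein-coding genes between them.

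Sema3d and Sema3f were called in the 12-culture set alone. Sema3d fell there from 13.81 ± 0.338 to 12.36 ± 0.0662 (SD, n = 3 each; log2FC −1.44, limma adjusted p = 4.77e-04), and −1.64 without replicate 2 of myc-/-, while its log2FC in the 6-culture set was 0.05. It is the direct neighbour of Sema3a, with 0 protein-coding genes between them, and Sema3a rose in that set. Sema3f fell from 14.81 ± 0.0416 to 13.81 ± 0.0743 (SD, n = 3 each; log2FC −0.99, limma adjusted p = 1.01e-05), beside a log2FC of −0.36 in the 6-culture set. Sema3g was called in neither set.

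**Figure D2:**
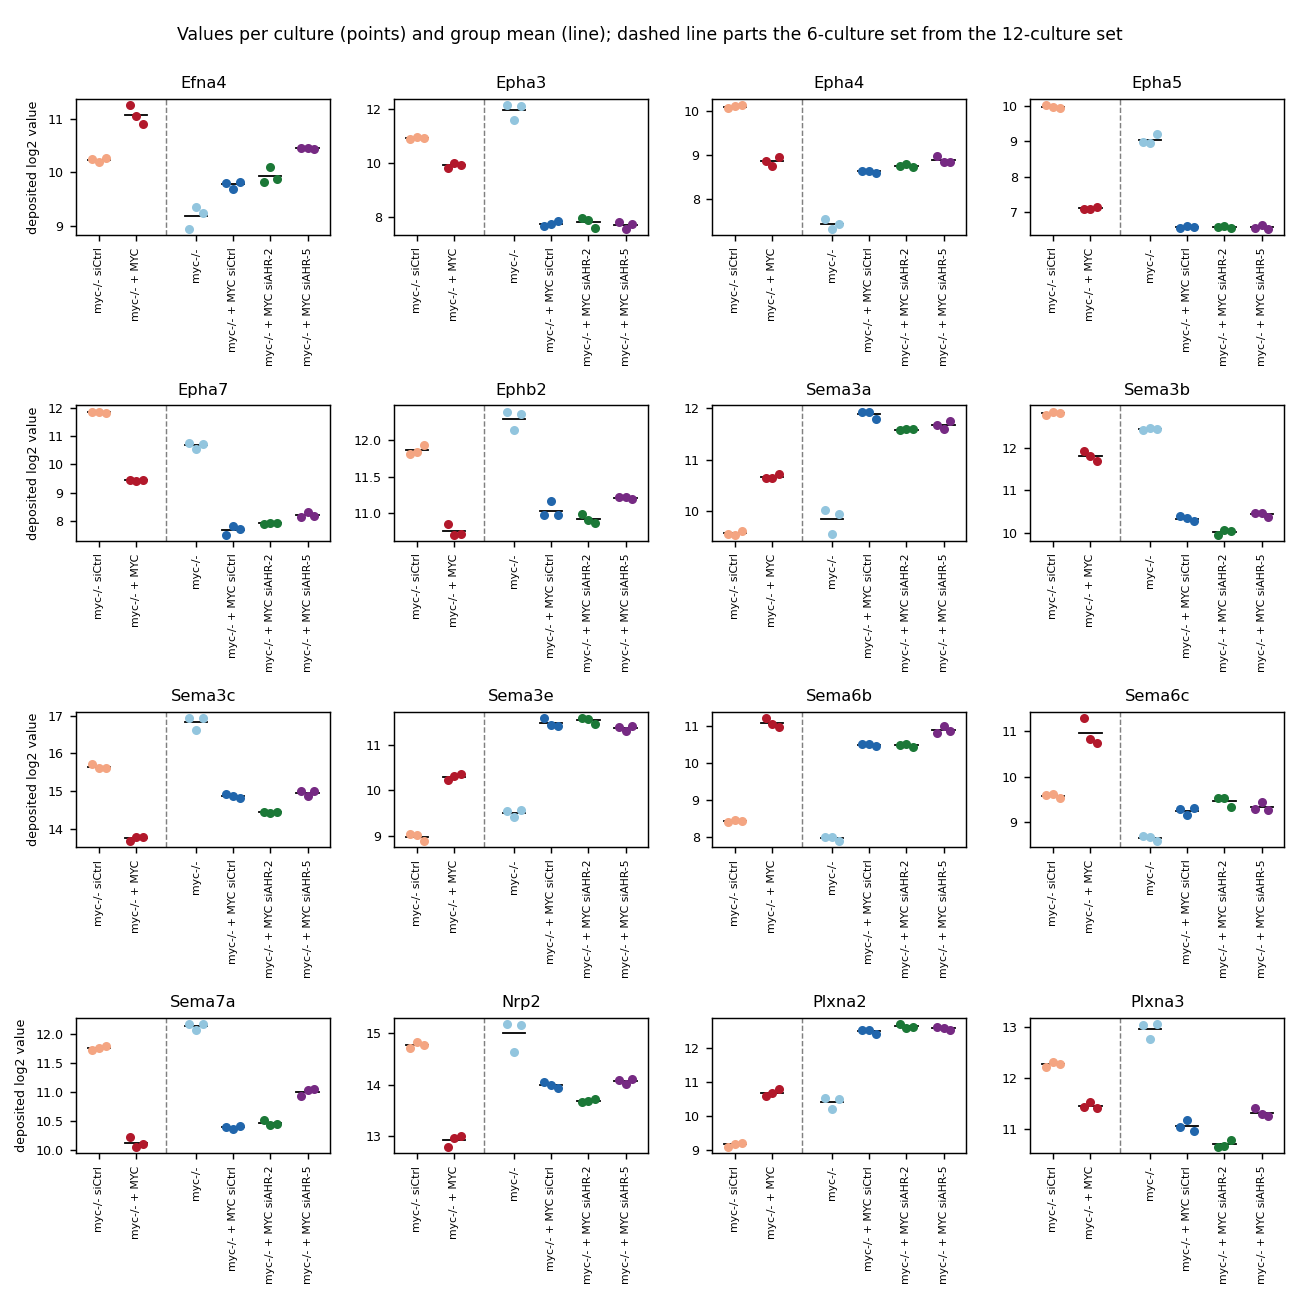
Deposited log2 value (y axis, a scale of its own in each panel) of each culture (points) and group mean (line) by group (x axis, 3 cultures each) for the 16 members called in both MYC comparisons; the dashed line parts the 6-culture set (left) from the 12-culture set, which are on different scales. In the 12-culture set the Sema6b, Sema3a, Sema3e and Plxna2 panels step up from myc-/- to the 3 groups with MYC, and the Epha3, Epha5 and Epha7 panels step down; Epha4 steps down in the 6-culture set and up in the 12-culture set.

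Among the membrane-bound semaphorins, the class 6 gene Sema6b had the largest rise of the 42 members in both sets. Class 6 semaphorins are transmembrane ligands of class A plexins. Sema6b went from 8.42, 8.47 and 8.43 to 11.22, 11.05 and 10.97 in the 6-culture set, 6.24-fold higher (log2FC 2.64, SE 0.0666, limma adjusted p = 2.84e-11). It went from 8.0, 8.0 and 7.9 to 10.51, 10.50 and 10.46 across the 12-culture set, 5.75-fold higher (log2FC 2.52, SE 0.0515, limma adjusted p = 5.16e-07). The cultures of each group lay close together beside this rise, and the difference between the 2 log2FC was −0.12 (limma adjusted p = 0.299). Sema6c, of the same class, went from 9.59, 9.63 and 9.53 to 11.30, 10.83 and 10.74 in the 6-culture set (log2FC 1.37, SE 0.12, limma adjusted p = 7.31e-07), where replicate 1 with MYC lay above the other two. Within the larger set it went from 8.70, 8.68 and 8.59 to 9.30, 9.16 and 9.31 (log2FC 0.60, SE 0.064, limma adjusted p = 3.42e-04), just past the fold cutoff and below it in 3 of the 6 fits that left out a library, with a lowest log2FC of 0.56. Sema6d was called in neither set.

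Sema7a, the lipid-anchored class 7 semaphorin, fell in both sets. It went from 11.72, 11.76 and 11.78 to 10.23, 10.05 and 10.10 in the 6-culture set, 3.08-fold lower (log2FC −1.62, SE 0.0523, limma adjusted p = 1.92e-10). Its values in the 12-culture set were 12.17, 12.07 and 12.17 without and 10.41, 10.36 and 10.42 with MYC, 3.35-fold lower (log2FC −1.74, SE 0.0442, limma adjusted p = 1.12e-06). The cultures of a group lay close together, and the groups did not overlap in either set.

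The class 4 semaphorins, transmembrane ligands of class B plexins among others, were called in the 6-culture set alone, where Sema4a and Sema4b fell. Sema4a went from 7.81 ± 0.068 to 6.55 ± 0.0263 (SD, n = 3 each; log2FC −1.26, limma adjusted p = 4.02e-09), beside a log2FC of −0.23 in the 12-culture set, where its values lay between 4.86 and 5.13. Sema4b went from 13.19 ± 0.0648 to 11.93 ± 0.0333 (SD, n = 3 each; log2FC −1.26, limma adjusted p = 1.48e-10), beside a log2FC of −0.42 in the 12-culture set. Sema4c, Sema4d, Sema4f and Sema4g, and the class 5 genes Sema5a and Sema5b, were called in neither set.

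The neuropilins, co-receptors of class 3 semaphorins and of VEGF, fell with MYC where they were called. Nrp2 went from 14.72, 14.83 and 14.78 to 12.79, 12.96 and 13.01 in the 6-culture set, 3.61-fold lower (log2FC −1.85, SE 0.0525, limma adjusted p = 6.83e-11). The larger set gave 15.18, 14.65 and 15.17 without and 14.05, 13.99 and 13.94 with MYC, 2.01-fold lower (log2FC −1.01, SE 0.15, limma adjusted p = 0.00151), with replicate 2 of myc-/- again the lowest of its group and a log2FC of −1.18 without it. Every culture with MYC was below every culture without it in both sets. Nrp1 fell in the 12-culture set from 13.90 ± 0.291 to 12.96 ± 0.0417 (SD, n = 3 each; log2FC −0.94, limma adjusted p = 0.0016), beside a log2FC of −0.42 in the 6-culture set, below the fold cutoff. In the 12-culture set, leaving out replicate 3 of myc-/- + MYC siCtrl gave Nrp1 a limma adjusted p of 0.0103, above the cutoff, and over all 6 such fits the log2FC lay between −1.11 and −0.85.

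The plexins, the signalling receptors of semaphorins, moved in both directions. Plxna2, a class A plexin that binds class 6 semaphorins and pairs with neuropilins, went from 9.10, 9.19 and 9.23 to 10.59, 10.69 and 10.80 in the 6-culture set, 2.87-fold higher (log2FC 1.52, SE 0.0638, limma adjusted p = 1.66e-09). It went from 10.55, 10.22 and 10.50 to 12.54, 12.52 and 12.42 across the 12-culture set, 4.2-fold higher (log2FC 2.07, SE 0.10, limma adjusted p = 1.01e-05). Plxna3, of the same class, moved the other way. Its values were 12.21, 12.31 and 12.26 without and 11.42, 11.52 and 11.39 with MYC in the 6-culture set (log2FC −0.81, SE 0.044, limma adjusted p = 1.39e-08). The 12-culture set held 13.03, 12.75 and 13.05 without and 11.03, 11.17 and 10.94 with MYC, 3.72-fold lower (log2FC −1.89, SE 0.10, limma adjusted p = 1.73e-05). The groups of both genes were apart in both sets. Plxnb2, a receptor of class 4 semaphorins, and Plxnd1, the plexin that Sema3e binds, were called in neither set.

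**Figure D3:**
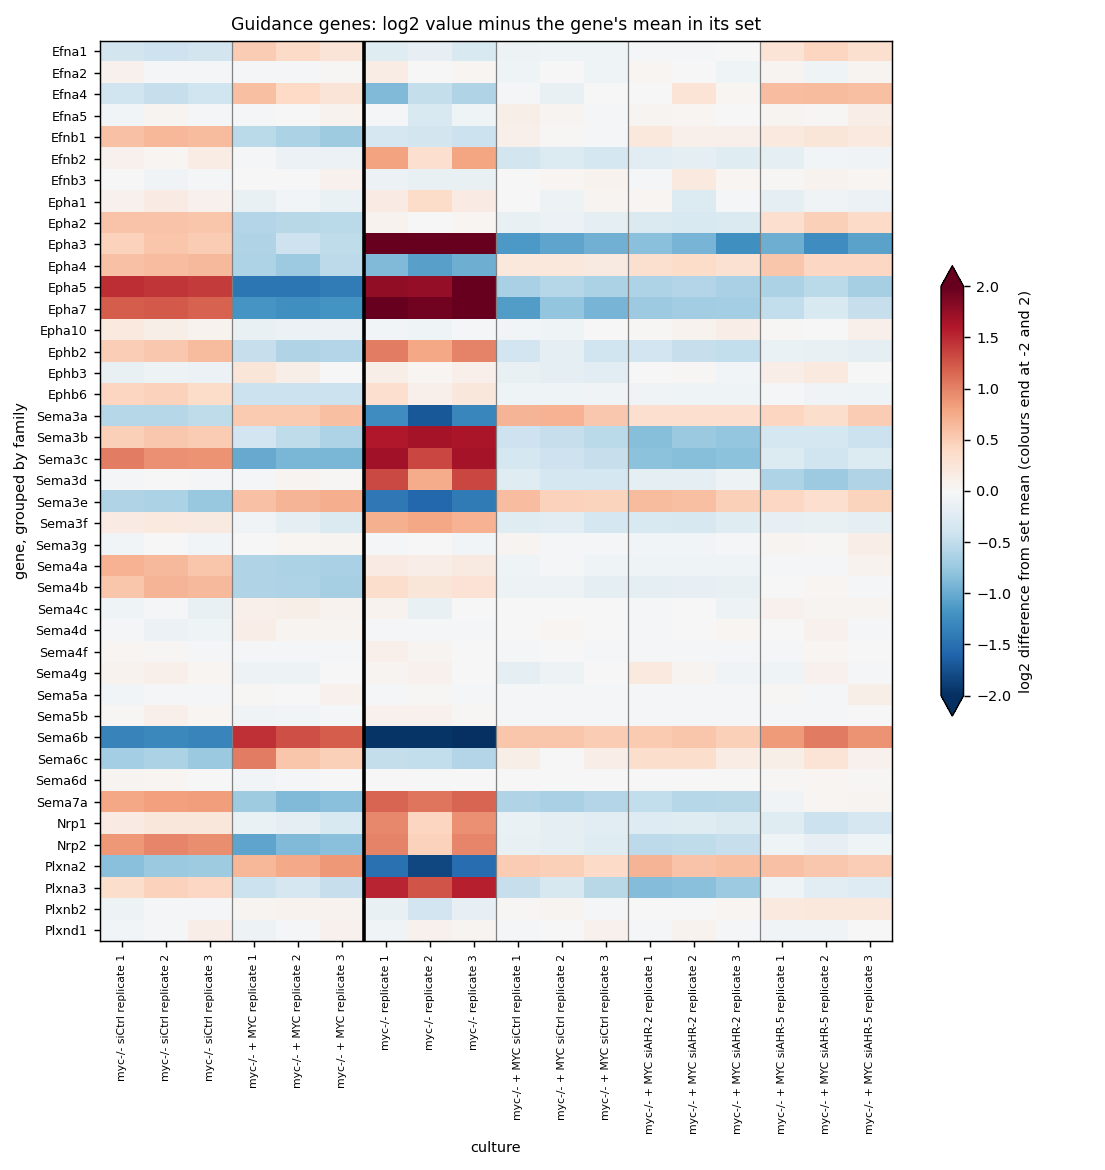
Log2 value minus the gene's mean in its set (colour, ends at −2 and 2) for the 42 guidance genes (y axis, grouped by family) in each of the 18 cultures (x axis, the 6-culture set left of the thick line and the 12-culture set right of it). The 3 groups with MYC in the 12-culture set look alike, and replicate 2 of myc-/- is paler than its group mates for genes such as Efnb2, Sema3d, Nrp1 and Nrp2.

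The MYC effects of the 2 sets were set against each other in one fit of the 12 libraries of these 4 groups. The log2FC of 17 members differed past the cutoffs (limma), 8 higher and 9 lower in the 12-culture set, against 16.5% of all genes, 6.79% higher and 9.67% lower. The split depended on the scaling: it was 9 higher and 8 lower of 17 members after quantile normalization, and 10 higher and 6 lower of 16 after median centring, where all genes split into 1148 higher and 1036 lower in place of 896 and 1275. With an adjusted p of 0.05 alone it was 25 members, against 54.9% of all genes. The largest differences were those of Epha3 (−3.18, SE 0.16), Epha4 (2.42, SE 0.10) and Efnb1 (1.67, SE 0.0749), with limma adjusted p of 4.12e-10, 3.73e-11 and 1.14e-10. The sets are on different scales, and 15 of the 17 still differed past the cutoffs after quantile normalization and 14 after median centring.

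The 2 siRNAs against AHR moved few guidance genes past the cutoffs. With siAHR-2, 0 of the 42 members were called (limma), against 0.47% of all genes, 0.159% higher and 0.311% lower, while 16 members had an unadjusted p under 0.05 (38.1%, against 40.4% of all genes), and 11 passed an adjusted p of 0.05 with no fold cutoff, against 29.3% of all genes. With siAHR-5, 2 members rose and 0 fell, against 2.32% of all genes, 1.47% higher and 0.849% lower, and 16 passed an adjusted p of 0.05 alone, against 39.2% of all genes. The median log2FC over the members was 0.00 with siAHR-2 and 0.08 with siAHR-5, and over all genes 0.00 and 0.01. With siAHR-5 the members' median was 0.04 after quantile normalization and 0.02 after median centring. The split of all genes called depended on the scaling, from 21 higher and 41 lower to 15 and 53 after median centring with siAHR-2, and from 194 higher and 112 lower to 140 and 165 with siAHR-5. The cultures did not overlap those of siCtrl for 18 members with siAHR-2, against 43.3% of all genes, and for 24 with siAHR-5, against 50.5%. Both siRNAs were compared with the same 3 siCtrl cultures.

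The members called with siAHR-5 were Efna4 and Sema7a. Efna4 was at 9.80, 9.69 and 9.82 in the siCtrl cultures, at 9.82, 10.10 and 9.86 with siAHR-2 and at 10.45, 10.46 and 10.44 with siAHR-5. The siAHR-2 values overlapped the siCtrl ones, and all 3 siAHR-5 values lay above them, 1.6-fold higher (log2FC 0.68, SE 0.0464, limma adjusted p = 5.01e-04). The log2FC with siAHR-2 was 0.16 (limma adjusted p = 0.25). Sema7a was at 10.41, 10.36 and 10.42 in the siCtrl cultures, at 10.51, 10.44 and 10.45 with siAHR-2 and at 10.93, 11.04 and 11.05 with siAHR-5. All 3 siAHR-5 cultures were above the others, 1.53-fold higher than siCtrl (log2FC 0.61, SE 0.0445, limma adjusted p = 5.61e-04). The log2FC with siAHR-2 was 0.07. Both calls depended on the scaling. After quantile normalization the log2FC with siAHR-5 was 0.56 for Efna4 and 0.54 for Sema7a, below the fold cutoff, and after median centring Sema7a was at 0.55.

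**Figure D4:**
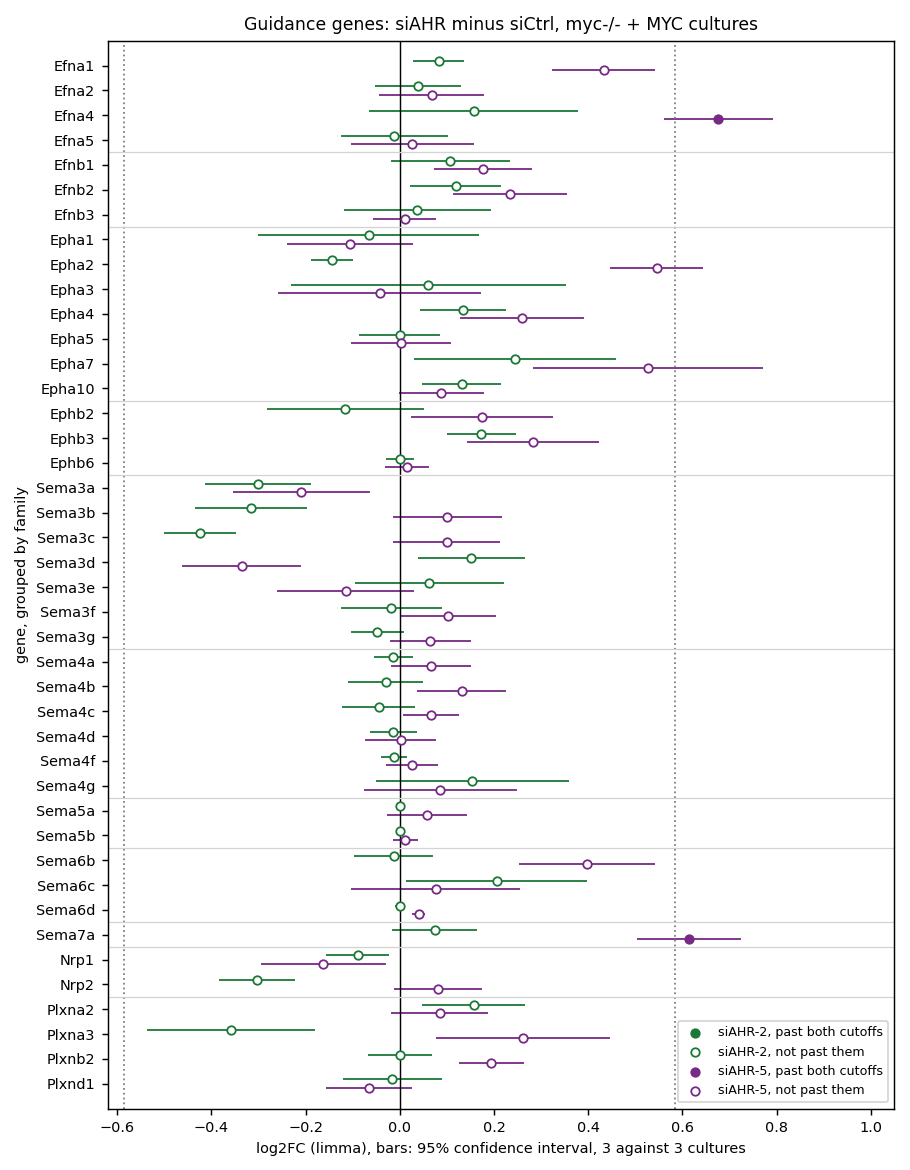
Log2FC with siAHR-2 (green) and siAHR-5 (purple) against siCtrl in myc-/- + MYC cells for the 42 guidance genes (x axis, limma, with 95% confidence intervals, 3 against 3 cultures; y axis, genes grouped by family); filled points passed both cutoffs and dotted lines mark a fold of 1.5 in either direction. The filled points are Efna4 and Sema7a with siAHR-5, and every siAHR-2 point lies between −0.42 and 0.24.

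Set directly against each other, siAHR-5 and siAHR-2 differed in 2 members, Epha2 and Plxna3 (limma), both higher with siAHR-5, against 2.18% of all genes, 1.33% higher and 0.849% lower. With an adjusted p of 0.05 alone 19 members differed, against 39.1% of all genes, and 23 did not overlap, against 49.5%. Epha2 was at 14.49, 14.52 and 14.46 in siCtrl cultures, at 14.34, 14.34 and 14.35 with siAHR-2 and at 14.97, 15.11 and 15.02 with siAHR-5. The siAHR-2 cultures were the lowest and the siAHR-5 cultures the highest, and the difference between them was 0.69 (SE 0.0368, limma adjusted p = 1.73e-04). Neither siRNA alone moved Epha2 past the fold cutoff, with log2FC of −0.14 and 0.54. Plxna3 was at 11.03, 11.17 and 10.94 in siCtrl cultures, at 10.64, 10.66 and 10.78 with siAHR-2 and at 11.41, 11.29 and 11.24 with siAHR-5. It had the same order, with a difference of 0.62 (SE 0.0606, limma adjusted p = 0.00102), which fell to 0.57 without replicate 1 of siAHR-5, below the fold cutoff. Efna4 and Sema7a, called with siAHR-5 and not with siAHR-2, differed between the siRNAs by 0.52 and 0.54, below the fold cutoff.

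The members with an adjusted p of at most 0.05 and no fold cutoff are named here after their values were seen. With siAHR-2 they were 5 higher and 6 lower, beside 1813 higher and 2047 lower of all genes. The lower ones, with their log2FC, were Sema3c (−0.42), Plxna3 (−0.36), Sema3b (−0.32), Nrp2 (−0.30), Sema3a (−0.30) and Epha2 (−0.14). The higher ones were Ephb3 (0.17), Plxna2 (0.16), Epha4 (0.13), Epha10 (0.13) and Efna1 (0.08). With siAHR-5 they were 14 higher and 2 lower, beside 2786 higher and 2383 lower of all genes. Past Efna4 and Sema7a, the higher ones of largest log2FC were Epha2 (0.54), Epha7 (0.53) and Efna1 (0.43), and the lower ones were Sema3d (−0.34) and Sema3a (−0.21).

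Genes that act beside or below the guidance genes were taken from 2 further lists. Of 18 other guidance ligands and receptors (netrins, slits, repulsive guidance molecules and their receptors) in the table, 4 were called in the 6-culture set (limma), all lower with MYC, which is 22.2% of the list against 26.8% of all genes. Over all genes, 12.5% were higher and 14.3% lower in that set. Slit1, a secreted repellent, had a log2FC of −3.50, the netrin Ntn4 −1.54, Slit3 −1.39 and L1cam, a neural cell adhesion molecule, −0.67. In the 12-culture set Slit1 had a log2FC of −0.00389 (limma adjusted p = 0.93) and L1cam one of 0.09, and neither was called. Over the libraries compared, Slit1 had a mean value of 4.51 in the 12-culture set against 8.54 in the 6-culture set. Whether a fall could show at the lower level was not tested. In the 12-culture set, 3 of 18 were called, 16.7% against 25.5% of all genes (10.8% higher and 14.7% lower). These 3 were lower: Ntn4 (−1.73), the membrane-anchored Rgma (−0.99) and Slit3 (−0.74). The median over the 18 was −0.34 in the 6-culture set and −0.03 in the 12-culture set. With siAHR-2, 0 of 18 were called (limma), against 0.47% of all genes, while 2 had an unadjusted p under 0.05 (11.1%, against 40.4% of all genes). With siAHR-5, 1 of 18 was called (5.56%, against 2.32% of all genes), the netrin-G gene Ntng2, which rose by 0.65. With siAHR-5, 8 of 18 had an unadjusted p under 0.05 (44.4%, against 47.8% of all genes).

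Of 51 intracellular partners of these receptors in the table (small GTPases and their regulators, kinases and cytoskeletal proteins), 19 were called in the 6-culture set (limma), 4 higher and 15 lower, and 21 in the 12-culture set, 3 higher and 18 lower. These are 37.3% and 41.2% of the list, beside 26.8% and 25.5% of all genes. Over all genes, 12.5% were higher and 14.3% lower in the 6-culture set, and 10.8% and 14.7% in the 12-culture set. The direction of that split over all genes depended on the scaling, as given above. The median log2FC over the 51 was −0.36 and −0.40. Vav3, a guanine nucleotide exchange factor, rose by 2.40 in the 6-culture set and 2.54 in the 12-culture set. Rnd2, a small GTP-binding protein, fell by 1.42 and 2.47. Mical1, an actin-oxidizing enzyme that acts downstream of plexins, rose by 1.66 and 0.59 while Mical2, of the same family and named after its values were seen, fell by 0.74 and 1.61, and Rras, a Ras-family substrate of plexins, fell by 0.76 and 2.04. With siAHR-2 and siAHR-5, 0 of the 51 were called (limma), against 0.47% and 2.32% of all genes. An unadjusted p under 0.05 was held by 24 and 29, which is 47.1% and 56.9% of the list, against 40.4% and 47.8% of all genes.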

How the data were processed

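The 18 libraries were grouped by the samples' labels into 6 groups of 3 cultures. Per the labels, the RNA was enriched for poly-A mRNA. Per the study's methods, the authors assessed the raw reads with NGS-QC-Toolkit, aligned them with HISAT2 2.1.0 to rn6, removed genes with fewer than 10 reads in total and normalized with DESeq2. The deposited values are log2 expression, headed as log CPM, in 1 table. The counter, its annotation and use of strand, the read depth and any offset are not given in the sources used here, so that no interval from counts could be given, and 21 of the 42 members overlap another annotated gene in GRCr8. There were 0 value columns without a sample.

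Each comparison was fitted with limma 3.58.1 (R 4.3.3, trended variances) on the deposited log2 values of the groups compared, over all 13188 genes. A gene was called at a fold of at least 1.5 in either direction and a Benjamini-Hochberg adjusted p of at most 0.01. Text and figures name every member called in a comparison, with values of each culture for the members called in both MYC comparisons and those called with or between the siRNAs. Members and lists were chosen with earlier results of these data known. Promoters came from RefSeq (GRCr8), and 34 of 42 members had an entry. On simulated data, between 183 and 198 of 200 genes given a log2FC of 1 were recovered in the 5 comparisons of groups and 0 of 12988 unchanged genes were called. The simulated noise was normal and independent between libraries, with no library standing apart and no shift of scale. The simulation thus checked the fitting procedure alone and gives no error rate for the calls in these data. Alternatives were quantile normalization, median centring, a filter on low values, no fold cutoff, a replicate block and fits without 1 library at a time. Figures were drawn with matplotlib 3.10.9 (Python 3.11.15).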

Additional observations from a re-analysis of the deposited data

Results flagged for a closer look

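For 17 of the 42 guidance genes the log2FC with MYC differed between the 2 sets of libraries by a test of the difference itself (limma, 3 cultures in each of 4 groups), against 16.5% of all genes, 6.79% higher and 9.67% lower. It was higher in the 12-culture set for Epha4 (by 2.42), Efnb1 (1.67), Sema4a (1.03), Sema3a (0.95), Epha2 (0.93), Nrp2 (0.85), Sema4b (0.83) and Sema3e (0.66). It was lower there, as differences on the log2 scale, for Epha3 (−3.18), Sema3d (−1.49), Sema3b (−1.10), Plxna3 (−1.08), Efnb2 (−0.79), Sema6c (−0.77), Sema3f (−0.64), Efna1 (−0.62) and Epha7 (−0.59). Sema4a lay between 4.86 and 5.13 in the 12-culture set, against 6.53 to 7.87 in the 6-culture set. Whether a fall as large could show at the lower level was not tested. The difference of Epha7 was −0.02 after quantile normalization (limma adjusted p = 0.879) and fell below the cutoff in 5 of 12 fits that left out a library. That of Sema3e was lost after quantile normalization, and those of Epha7, Efna1 and Sema3f were lost after median centring. Without replicate 1 of myc-/- + MYC, those of Efna1 (−0.56) and Sema3f (−0.58) also fell below the fold cutoff. The sets differ in scale and in which group, with or without MYC, received the control siRNA, and these cannot be told apart here.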

How the results depend on the processing

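Under every alternative run, 0 of the members' calls reversed in direction. With an adjusted p of at most 0.05 and no fold cutoff, limma called 35 members with MYC in the 6-culture set, 34 in the 12-culture set, 11 with siAHR-2, 16 with siAHR-5 and 19 between the siRNAs. With siAHR-5, 0 members were called after quantile normalization and 1 after median centring. Leaving out 1 library at a time gave 22 to 22 members in the 6-culture set, 17 to 20 in the 12-culture set, 0 to 0 with siAHR-2, 2 to 2 with siAHR-5, 1 to 3 between the siRNAs (1 without replicate 1 of siAHR-5) and 14 to 18 for the difference between the MYC effects. For that difference, quantile normalization lost Epha7 (−0.02) and Sema3e (0.37), and median centring lost Epha7 (−0.51), Efna1 (−0.54) and Sema3f (−0.55). Leaving out replicate 1 of myc-/- + MYC lost Epha7 (−0.58), Efna1 (−0.56) and Sema3f (−0.58). Over all genes, the split with siAHR-5 went from 194 higher and 112 lower to 127 and 126 after quantile normalization and to 140 and 165 after median centring. With siAHR-2 it went from 21 and 41 to 15 and 53 after median centring. With MYC, quantile normalization moved it from 1653 and 1884 to 1799 and 1684 in the 6-culture set (1492 and 2046 after median centring) and from 1425 and 1936 to 1796 and 1660 in the 12-culture set. The cause of these shifts was not tested, and without read depth the precision of low values is unknown.

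The replicate numbers did not pair the samples: correlations of deviations between same-numbered cultures ran from −0.26 to 0.24 and did not all exceed 0.1 in any comparison. With the number as a block, limma called 22 members in the 6-culture set, 19 in the 12-culture set (without Efna4, adjusted p = 0.0177), 0 with siAHR-2, 2 with siAHR-5, 1 between the siRNAs (without Plxna3, adjusted p = 0.0106) and 17 for the difference between sets. With siAHR-2, calls over all genes went from 62 to 0 under the block.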
